A study of Harpegnathos saltator with 27 samples.

Results

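Counts from 12 of the 27 libraries were used to ask whether 20-hydroxyecdysone (20E) changed the same genes in the abdominal fat body and in the ovary of the ponerine ant Harpegnathos saltator. The 12 libraries were all those of both tissues that received 20E or its solvent, with 3 in each of the groups 20E-Fb, EtOH-Fb, 20E-OV and EtOH-OV, where Fb is fat body and OV is ovary. Workers received 500 ng of 20E, or about 1 µL of the solvent, 10% ethanol (EtOH) in Hank's balanced salt solution, by injection into the abdomen, and the tissues were collected 12 hours later. The workers of the EtOH groups were thus injected too, and no group was left without an injection. Each treatment had 3 ants per the series' design, and the labels do not say which libraries of the 2 tissues share an ant. Brain libraries after 20E or EtOH, and fat body and ovary libraries after 500 ng of methoprene (a juvenile hormone analog, JHA), are used below only where they are named.

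20E is the active form of the insect steroid hormone ecdysone. It binds a nuclear receptor made of the ecdysone receptor and ultraspiracle, which then acts on transcription directly and through a cascade of other transcription factors. The fat body is the insect organ of intermediary metabolism and storage and the main source of yolk proteins, and the ovary takes up those proteins while its germ cells and follicle cells mature. In adult insects the ovary is also a known site of ecdysteroid synthesis.

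The table named none of its 20659 gene identifiers, and 0 of them occurred in a RefSeq table of 14329 genes of the species. No function is therefore given for any gene, and the tissue labels could not be checked against named markers. The 12 libraries held 12.6 to 17.4 M (mega) gene counts each. Values per library are CPM, counts scaled to the library's size and to edgeR's trimmed mean of M values (TMM) over all 27 libraries.

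The ovary libraries did not vary alike. Over 7102 genes, the median standard deviation of log2 CPM within a group was 0.240 in 20E-Fb, 0.266 in EtOH-Fb, 0.213 in 20E-OV and 0.114 in EtOH-OV. 20E-OV replicate 3 stood apart from its group. Its chi-square per degree of freedom against the other 20E-OV libraries was 104 and 114, while those libraries had 17.2 between them and the EtOH-OV pairs 11.3 to 20.5. Every replicate pair of fat body had a larger value, from 125 to 264. By this measure 20E-OV replicate 3 thus stood apart only among the ovary libraries. On the first principal component of the 9 ovary libraries it lay at -14.4, with JHA-OV replicate 1 at -52.6 and the other libraries between -2.2 and 19.4. Results are therefore also given without 20E-OV replicate 3 and JHA-OV replicate 1, the ovary libraries that stood apart.

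With edgeR, 20E was followed by more called changes in fat body than in ovary, an order that limma voom with library weights turned round. Of 13367 genes tested with edgeR's quasi-likelihood test in 1 fit of all 27 libraries, 583 (4.36%) had a Benjamini-Hochberg adjusted p under 0.05 for 20E against EtOH in fat body, 276 higher and 307 lower. In ovary 4 genes (0.0299%) passed, all higher with 20E. An unadjusted p under 0.05 was reached by 2200 genes in fat body and by 407 in ovary. The ovary number is below the share of 0.05 of all tests expected where no gene changes. Genes whose 20E and EtOH libraries did not overlap numbered 2048 (15.3%) in fat body and 1223 (9.15%) in ovary. In bulk tissue, a change in the number of cells of a type and a change in RNA per cell cannot be told apart. Both counts depended on the test. With limma voom and library weights, 331 genes passed in fat body and 581 in ovary. With DESeq2 the counts were 902 in fat body and 54 in ovary. The fit of the 12 libraries gave 288 in fat body and 0 in ovary. Fits of 1 tissue gave 100 in fat body and 0 in ovary over 9 libraries, and 33 in fat body and 0 in ovary over 6. In these edgeR fits with 0 ovary calls, 317 genes (12 libraries), 274 (9 libraries) and 497 (6 libraries) had an unadjusted p under 0.05 in ovary. Each of these numbers is also below a share of 0.05 of the genes tested. Without the libraries that stood apart, 878 passed in fat body and 31 in ovary (9 higher, 22 lower). Without 20E-OV replicate 3 alone, 641 passed in fat body and again 4 in ovary, with 2 higher and 2 lower. An unadjusted p under 0.05 in ovary was then reached by 865 of 13607 genes, and by 1139 of 13580 without both libraries. With limma voom and library weights, 2768 of 13367 genes reached it. These numbers are above a share of 0.05, whereas the 493 of 13367 genes with DESeq2 are below it.

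Whether a gene responded differently in fat body and ovary was tested directly, as the log2 fold change in fat body minus that in ovary. This difference passed for 80 genes (0.598%), 40 with a higher and 40 with a lower value in fat body, and 1206 genes had an unadjusted p under 0.05. All 80 had passed in fat body and none of them passed in ovary. For 501 of the 581 genes called in fat body and not in ovary, the difference did not pass. The difference passed for 13.7% of the genes called in fat body.

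The sorting into genes with and without a called difference uses the values of both tissues, so the ovary values of the 501 genes are a description. Those higher with 20E in fat body, 234 genes, had median log2 fold changes of 1.26 there and 0.13 in ovary, where 171 lay above 0 and 63 below 0. Those lower with 20E in fat body, 267 genes, had medians of -1.36 there and -0.09 in ovary, where 161 lay below 0 and 104 above 0. In ovary 23 of the 234 and 19 of the 267 had an unadjusted p under 0.05, beside 407 of all 13367 tested genes. Of all tested genes, 7362 lay above 0 in ovary and 5926 below 0. For these genes the data neither show a difference between the tissues nor show that the response was the same.

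Sorted by call, 2 genes moved in the same direction in both tissues, both higher with 20E. No gene moved in opposite directions by edgeR's test, where 16 genes had an unadjusted p under 0.05 in both tissues with opposite signs and 105 with the same sign. The opposite class also held 0 genes with DESeq2, against 7 with limma voom and library weights, and 1 when the libraries that stood apart were removed. In fat body only, 80 genes passed together with the difference, of which 77 also averaged at least 1 CPM over the 6 ovary libraries. In ovary only, 2 genes passed, and the difference did not pass for either. The same class with a called difference held 9 genes with DESeq2, 12 with limma voom and 7 without the libraries that stood apart. In the edgeR fit of all 27 libraries, 78 genes had an unadjusted p under 0.05 in ovary and for the difference but not in fat body. With fat body and ovary exchanged, the number was 973.

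**Figure D1:**
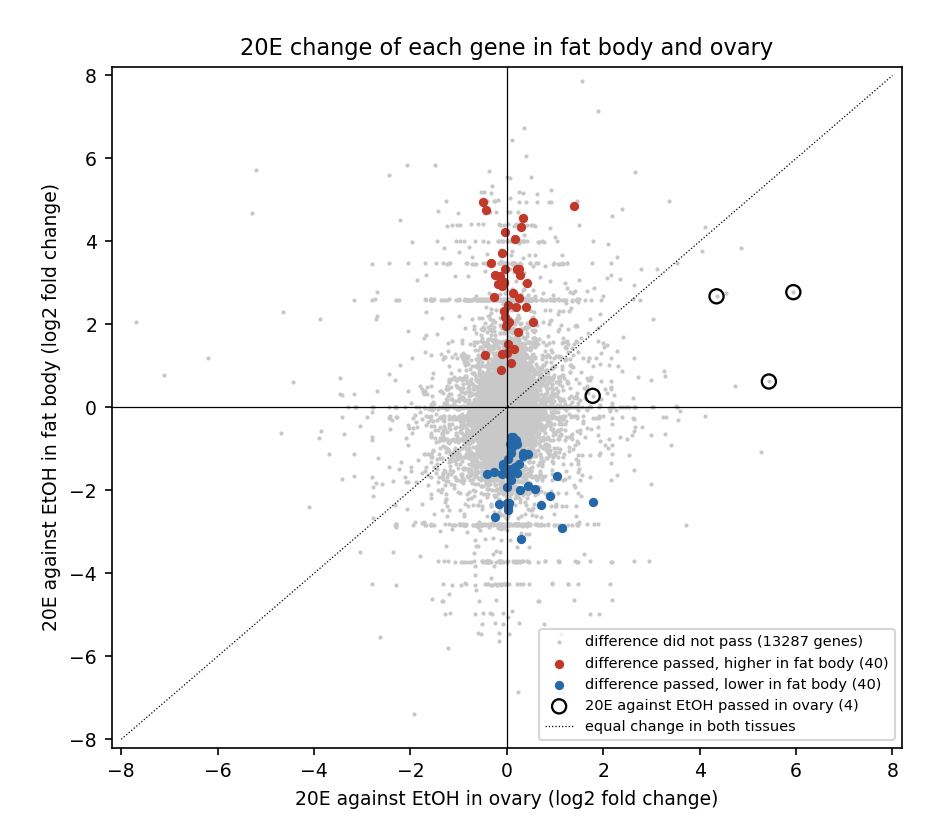
Each point is a gene, with its log2 fold change of 20E against EtOH in ovary on the horizontal axis and in fat body on the vertical axis. The 40 red and 40 blue genes, whose difference between tissues passed (adjusted p under 0.05), lie along the vertical axis, with 39 of the red and 37 of the blue under 2-fold in ovary and the others to their right, and the 4 circled genes passed in ovary. The dotted line marks equal change, 1 gene lies outside the axes.

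Sorted by size instead, with at least a 2-fold change as the limit, 69 of the 80 changed in fat body alone. In both tissues 1 gene changed in the same direction, 3 changed in opposite directions, and 7 stayed under 2-fold in both. Over all 9281 genes with at least 1 CPM on average in each tissue, whether called or not, 693 changed at least 2-fold in fat body alone and 121 in ovary alone. Another 69 changed at least 2-fold in both in the same direction, 16 changed in opposite directions, and 8382 stayed under 2-fold in both. With a limit of 5 CPM these numbers were 405, 70, 37, 7 and 6827 of 7346 genes.

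The 40 genes with the higher response in fat body had a median log2 fold change of 2.84 there, a 7.16-fold rise, with a range of 0.90 to 4.96, and 31 of them rose at least 4-fold. The values of both tissues chose these genes, so their folds are a description. In ovary, the same genes had a median of -0.00 with a range of -0.50 to 1.39, 20 above 0 and 20 below 0, beside a median of 0.02 over all tested genes. Of the 40, 39 stayed under 2-fold and 28 under 1.2-fold in ovary, beside 12400 and 8929 of the 13367 tested genes. The median standard error of a log2 fold change was 0.36 in fat body and 0.31 in ovary for these genes. The 20E-Fb and EtOH-Fb libraries did not overlap for any of the 40, and in ovary 4 of the 40 had no overlap. Of all tested genes, 15.3% had no overlap in fat body and 9.15% in ovary. The ovary count was thus near the share of all genes, and the fat body values themselves chose the 40. Their median level was 148 CPM in 20E-Fb and 22.6 CPM in EtOH-Fb, against 58.0 CPM in 20E-OV and 51.4 CPM in EtOH-OV. The ovary medians lay between the fat body medians on this scale, whereas without TMM scaling the medians were 68.7 CPM in 20E-Fb and 9.79 CPM in EtOH-Fb, against 83.6 CPM in 20E-OV and 73.0 CPM in EtOH-OV. Comparisons of a level between tissues thus depend on the scaling.

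The smallest adjusted p belonged to HSALG007563.2. It had 155, 228 and 129 CPM in the 20E-Fb libraries, against 30.9, 24.3 and 36.9 CPM in EtOH-Fb. In ovary it had 50.1, 61.1 and 39.4 CPM in 20E-OV, against 50.6, 48.5 and 49.0 CPM in EtOH-OV. Every 20E-Fb library lay above every EtOH-Fb library, while the ovary groups overlapped. Its log2 fold change was 2.48 (SE 0.20) in fat body and 0.02 (SE 0.18) in ovary, and the difference was 2.45 (SE 0.27; edgeR, adjusted p = 7.29e-05).

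HSALG030197.1 came next among the higher genes and had the largest rise of the 40. It had 31.5, 34.4 and 54.9 CPM in 20E-Fb, against 1.16, 2.07 and 0.660 CPM in EtOH-Fb. It had 3.74, 3.68 and 3.00 CPM in 20E-OV, against 3.32, 5.99 and 5.46 CPM in EtOH-OV. The fat body groups were far apart and the ovary groups overlapped, with a lower mean in 20E-OV. The log2 fold change was 4.96 (SE 0.52) in fat body and -0.50 (SE 0.42) in ovary, a difference of 5.46 (SE 0.67; edgeR, adjusted p = 0.000269).

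The most abundant genes of this list in 20E-Fb, chosen after their values were seen, were HSALG006968.1 and HSALG006240.2. HSALG006968.1 had 1434, 4564 and 4107 CPM in 20E-Fb, against 251, 455 and 288 CPM in EtOH-Fb. In ovary it had 117, 144 and 181 CPM in 20E-OV, against 109, 139 and 123 CPM in EtOH-OV. Replicate 1 of 20E-Fb lay well below its partners and above every EtOH-Fb library, and the ovary groups overlapped. The difference was 3.09 on the log2 scale (SE 0.46; edgeR, adjusted p = 0.000966). HSALG006240.2 averaged 1270.3 ± 308 CPM in 20E-Fb and 279 ± 45.4 CPM in EtOH-Fb, against 165 ± 17.7 CPM in 20E-OV and 168 ± 58.8 CPM in EtOH-OV (SD, n = 3 each), a difference of 2.22 (SE 0.37; edgeR, adjusted p = 0.00352).

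The 40 genes with the lower response in fat body moved less. Their median log2 fold change there was -1.59, with a range of -3.16 to -0.71, and 11 of them fell at least 4-fold. In ovary the median was 0.09 with a range of -0.41 to 1.78. There 31 of the 40 lay above 0 and 37 stayed under 2-fold, beside 7362 and 12400 of the 13367 tested genes. The choice of genes with a negative difference itself favours ovary values above 0, so these values are a description. The fat body libraries did not overlap for 39 of the 40, and in ovary 8 of the 40 had no overlap. Of all tested genes, 15.3% had no overlap in fat body and 9.15% in ovary. Their median level was 63.5 CPM in 20E-Fb and 173 CPM in EtOH-Fb, against 29.4 CPM in 20E-OV and 26.5 CPM in EtOH-OV. Without TMM scaling the medians were 29.6 CPM in 20E-Fb and 75.5 CPM in EtOH-Fb, against 42.3 CPM in 20E-OV and 37.7 CPM in EtOH-OV.

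HSALG009122.1 had the smallest adjusted p among them. It had 9.48, 9.06 and 9.55 CPM in 20E-Fb, against 55.3, 50.6 and 41.2 CPM in EtOH-Fb. It had 11.4, 12.2 and 15.5 CPM in 20E-OV, against 10.8, 14.4 and 13.2 CPM in EtOH-OV. The 20E-Fb libraries lay close together and far below the EtOH-Fb libraries, while the ovary groups overlapped. The difference was -2.42 (SE 0.34; edgeR, adjusted p = 0.000702).

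HSALG009116.1 had 60.9, 57.6 and 69.1 CPM in 20E-Fb, against 418, 297 and 327 CPM in EtOH-Fb. In ovary it stayed between 7.46 and 10.1 CPM in all 6 libraries. The fall in fat body came with no overlap between the groups there, and the difference was -2.49 (SE 0.38; edgeR, adjusted p = 0.00116).

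The most abundant lowered genes in EtOH-Fb, again chosen after their values were seen, were HSALG012909.1 and HSALG002447.2. HSALG012909.1 had 605, 489.9 and 379 CPM in 20E-Fb, against 2475, 1451 and 1889 CPM in EtOH-Fb. In ovary it had 67.6, 60.3 and 63.3 CPM in 20E-OV, against 56.4, 52.2 and 49.1 CPM in EtOH-OV. The groups did not overlap in either tissue and lay in opposite orders, but the ovary change was small, at 0.28 on the log2 scale (SE 0.29), and did not pass. The difference was -2.26 (SE 0.41; edgeR, adjusted p = 0.00842). HSALG002447.2 averaged 537 ± 102 CPM in 20E-Fb and 1160.1 ± 35.6 CPM in EtOH-Fb, against 55.5 ± 5.03 CPM in 20E-OV and 44.0 ± 5.55 CPM in EtOH-OV (SD, n = 3 each). Its difference was -1.45 (SE 0.26; edgeR, adjusted p = 0.00851).

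**Figure D2:**
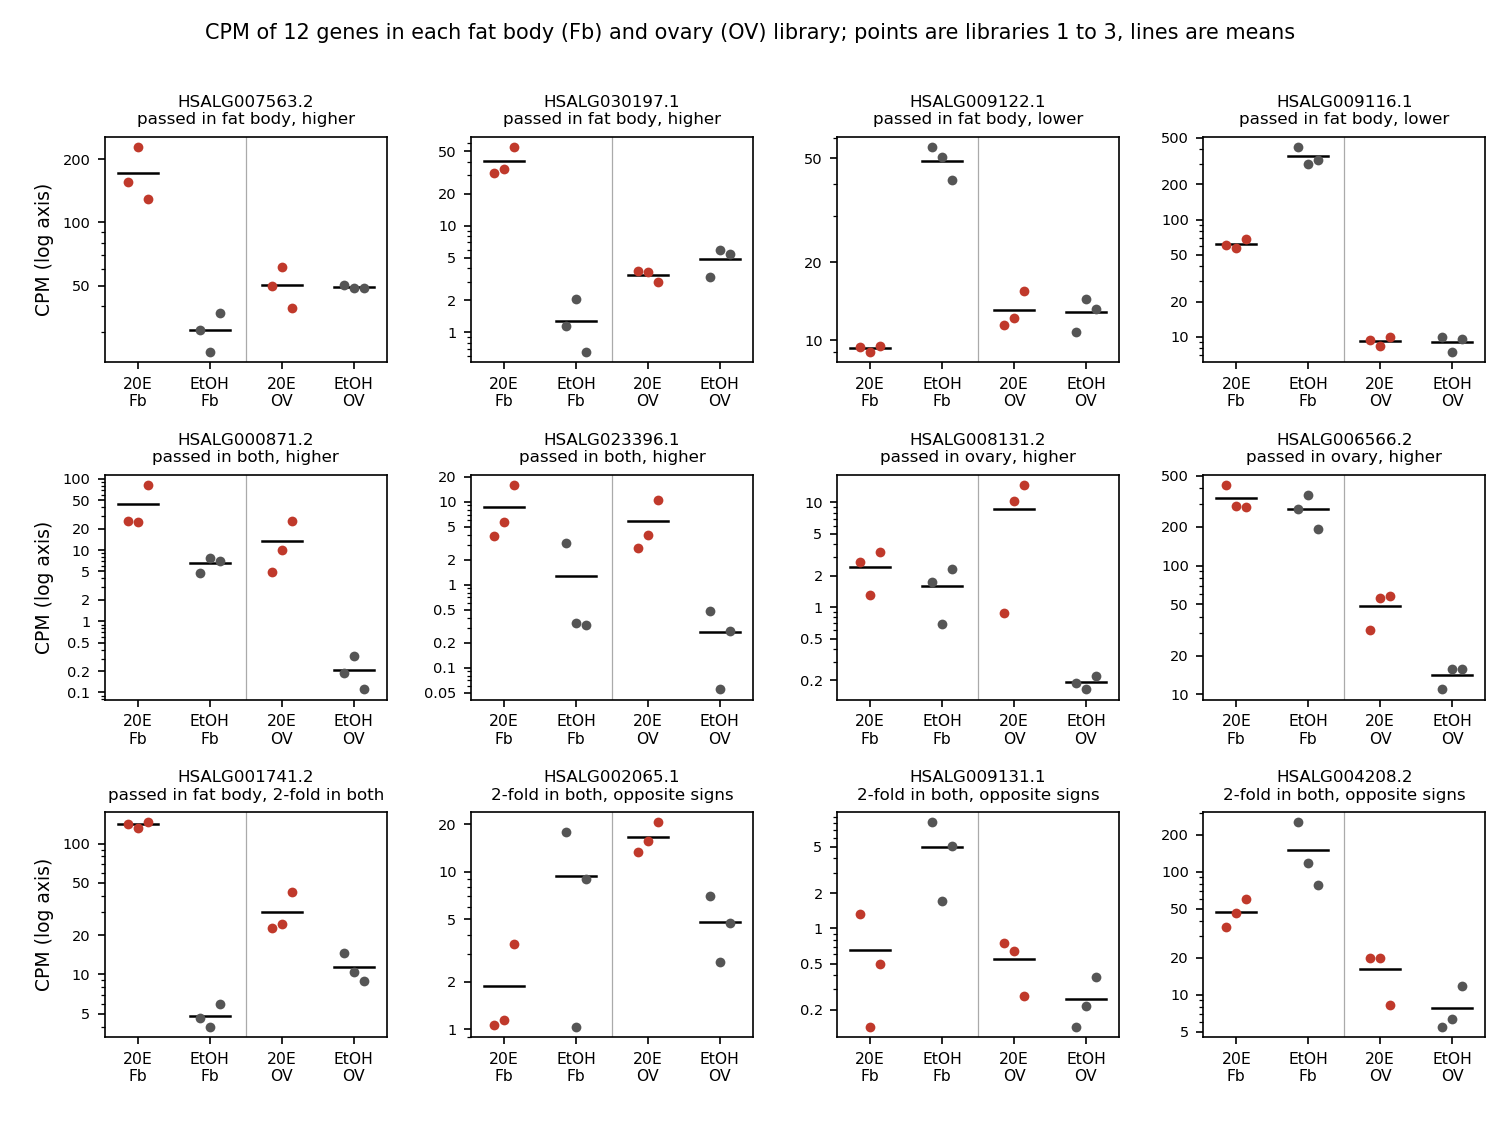
CPM on a log axis in the 3 libraries of 20E-Fb, EtOH-Fb, 20E-OV and EtOH-OV for 12 genes, with points for replicates 1 to 3 from left to right and a line for the mean. The top row shows genes called in fat body, whose 20E libraries lie apart from EtOH in fat body alone; the middle row shows the 4 genes called in ovary; the bottom row shows the genes that changed at least 2-fold in both tissues among those with a called difference.

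The genes that passed in both tissues were HSALG000871.2 and HSALG023396.1, and both had the nominally larger log2 fold change in ovary. HSALG000871.2 had 25.8, 24.9 and 82.4 CPM in 20E-Fb, against 4.78, 7.75 and 6.93 CPM in EtOH-Fb. In ovary it had 4.99, 10.1 and 25.2 CPM in 20E-OV, against 0.190, 0.327 and 0.110 CPM in EtOH-OV, which were 4, 6 and 2 counts. Neither pair of groups overlapped, and replicate 3 was the highest 20E library in each tissue. The log2 fold change was 2.78 (SE 0.54; edgeR, adjusted p = 0.00353) in fat body and 5.94 (SE 0.68; edgeR, adjusted p = 0.000205) in ovary. The fat body call was lost in 2 and the ovary call in 4 of 22 alternative fits. The difference of -3.17 (SE 0.84) did not pass (edgeR, adjusted p = 0.105), and it passed in 3 of 21 alternative fits.

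HSALG023396.1 had 3.87, 5.75 and 15.99 CPM in 20E-Fb, against 3.19, 0.344 and 0.330 CPM in EtOH-Fb. It had 2.78, 3.91 and 10.6 CPM in 20E-OV, against 0.475, 0.0545 and 0.276 CPM in EtOH-OV, which were 10, 1 and 5 counts. EtOH-Fb replicate 1 lay just under the lowest 20E-Fb library, and neither pair of groups overlapped. Its log2 fold changes were 2.68 (SE 0.70; edgeR, adjusted p = 0.0286) in fat body and 4.35 (SE 0.74; edgeR, adjusted p = 0.0238) in ovary. The fat body call was lost in 7 and the ovary call in 8 of 22 alternative fits. The difference was -1.67 (SE 1.00; edgeR, adjusted p = 0.693), and it was 0.28 without EtOH-Fb replicate 1.

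The genes called in ovary only were HSALG008131.2 and HSALG006566.2. HSALG008131.2 had 2.67, 1.29 and 3.35 CPM in 20E-Fb, against 1.74, 0.689 and 2.31 CPM in EtOH-Fb, and the groups overlapped. In ovary it had 0.872, 10.4 and 14.8 CPM in 20E-OV, against 0.190, 0.163 and 0.221 CPM in EtOH-OV, which were 4, 3 and 4 counts. 20E-OV replicate 1 lay far below its partners, though above every EtOH-OV library. The log2 fold change was 0.62 (SE 0.80) in fat body and 5.44 (SE 0.89; edgeR, adjusted p = 0.0187) in ovary, and the difference of -4.81 (SE 1.19) did not pass (edgeR, adjusted p = 0.0718). The ovary call was lost in 8 of 22 alternative fits.

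HSALG006566.2 was well expressed in both tissues. It had 424, 288 and 287 CPM in 20E-Fb, against 276, 355 and 193 CPM in EtOH-Fb. It had 31.5, 56.1 and 57.8 CPM in 20E-OV, against 10.9, 15.7 and 15.7 CPM in EtOH-OV. The fat body groups overlapped and the ovary groups did not. The log2 fold change was 0.28 (SE 0.26) in fat body and 1.78 (SE 0.27; edgeR, adjusted p = 0.00951) in ovary, with a difference of -1.50 (SE 0.37; edgeR, adjusted p = 0.0729) that passed in 4 of 21 alternative fits. The ovary call was lost in 7 of 22.

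Among the 80, the gene that changed at least 2-fold in the same direction in both tissues was HSALG001741.2. It had 142, 133 and 145 CPM in 20E-Fb, against 4.64, 3.96 and 5.94 CPM in EtOH-Fb. It had 22.6, 24.4 and 42.5 CPM in 20E-OV, against 14.7, 10.5 and 8.99 CPM in EtOH-OV. The groups overlapped in neither tissue, and the fat body libraries after 20E lay within a narrow range. Its log2 fold change was 4.85 (SE 0.35) in fat body and 1.39 (SE 0.29) in ovary, where it did not pass (edgeR, adjusted p = 0.0956). The difference was 3.46 (SE 0.43; edgeR, adjusted p = 0.000287), a ratio of 11.02 between the fold changes of the tissues.

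The 3 genes that changed at least 2-fold in opposite directions were all lower with 20E in fat body and higher in ovary, and none of their ovary changes passed. HSALG002065.1 had 1.07, 1.15 and 3.47 CPM in 20E-Fb, against 18.0, 1.03 and 9.07 CPM in EtOH-Fb. It had 13.5, 15.6 and 20.6 CPM in 20E-OV, against 7.02, 2.67 and 4.75 CPM in EtOH-OV. The fat body groups overlapped because EtOH-Fb replicate 2 lay below all 20E-Fb libraries, and the ovary groups did not overlap. The log2 fold change was -2.29 (SE 0.63) in fat body and 1.78 (SE 0.56) in ovary, and the difference of -4.07 (SE 0.84; edgeR, adjusted p = 0.0216) was lost in 6 of 21 alternative fits, with adjusted p = 0.228 in the fit of 12 libraries.

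HSALG009131.1 had 1.34, 0.144 and 0.496 CPM in 20E-Fb, against 8.11, 1.72 and 5.11 CPM in EtOH-Fb. In ovary it had 0.748, 0.637 and 0.263 CPM in 20E-OV, against 0.142, 0.218 and 0.386 CPM in EtOH-OV, at most 18 counts in any library. The ovary groups overlapped at this low level. The difference was -4.04 (SE 0.93; edgeR, adjusted p = 0.046), and it was lost in 12 of 21 alternative fits. HSALG004208.2, the remaining gene, named after its values were seen, had 35.7, 46.4 and 60.1 CPM in 20E-Fb, against 250.5, 117 and 78.5 CPM in EtOH-Fb. It had 20.1, 19.8 and 8.25 CPM in 20E-OV, against 5.46, 6.32 and 11.7 CPM in EtOH-OV. In 20E-OV replicate 3, the library that stood apart, it lay within the EtOH-OV range, and its difference of -2.69 (SE 0.53; edgeR, adjusted p = 0.015) was lost in 6 of 21 alternative fits.

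Without the ovary libraries that stood apart, 1 gene was called in both tissues with opposite signs. This was HSALG026592.1, named after its values were seen. It had 78.3, 166 and 150.3 CPM in 20E-Fb, against 86.0, 76.4 and 49.5 CPM in EtOH-Fb. It had 2.16, 2.77 and 6.25 CPM in 20E-OV, against 7.498, 8.01 and 6.68 CPM in EtOH-OV. The fat body groups overlapped, and the ovary groups did not, although 20E-OV replicate 3 lay just under EtOH-OV. With all libraries the log2 fold change was 0.90 (SE 0.35) in fat body and -0.998 (SE 0.37) in ovary, and neither passed. Without both libraries the ovary value was -1.58 (SE 0.30; edgeR, adjusted p = 0.0274) and the difference 2.48 (edgeR, adjusted p = 0.00173). The fat body value stayed at 0.90, and its adjusted p went from 0.174 to 0.0225 (edgeR). No fat body library was removed, so the removal acted on the fat body call only through the shared fit. The fat body change passed in 1 of 22 alternative fits and the ovary change in 2 of 22.

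The brain, which entered neither side of the difference, gave a further measure of the same genes. Of all tested genes, 95 (0.711%) passed for 20E against EtOH in brain, and 81 (0.606%) passed as higher. Among the 40 genes with the higher response in fat body, 6 passed as higher in brain, 21 had an unadjusted p under 0.05 there, and 33 lay above 0, with a median log2 fold change of 0.60. Of all 13367 tested genes, 868 had an unadjusted p under 0.05 in brain, 5930 lay above 0 and 7396 below 0, with a median of -0.03. Among the 40 with the lower response, 33 lay below 0 in brain with a median of -0.15, but 0 passed with edgeR and 0 had an unadjusted p under 0.05. The genes called in fat body without a called difference leaned the same way in brain. Of the 234 raised genes 176 lay above 0 in brain, 50 had an unadjusted p under 0.05 and 18 passed as higher. Of the 267 lowered genes 206 lay below 0 in brain. The lean was thus not particular to the genes with a called difference. Whether the brain and ovary responses of these lists differ was not tested.

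The largest brain rises among the 80 were those of HSALG015071.2 and HSALG013686.2, chosen after their values were seen. HSALG015071.2 had 223, 307 and 501 CPM in 20E-Fb, against 41.6, 39.8 and 30.5 CPM in EtOH-Fb. It had 42.9, 38.2 and 50.8 CPM in 20E-OV, against 40.2, 33.8 and 35.8 CPM in EtOH-OV. It had 143, 229 and 368 CPM in 20E-Brain, against 24.6, 22.1 and 21.9 CPM in EtOH-Brain. The 20E libraries stood far above EtOH in fat body and brain and overlapped EtOH in ovary. The log2 fold change was 3.20 (SE 0.30) in fat body, 0.26 (SE 0.28) in ovary and 3.43 (SE 0.31; edgeR, adjusted p = 1.39e-06) in brain, and the difference between fat body and ovary was 2.94 (SE 0.40; edgeR, adjusted p = 0.000523). HSALG013686.2 gave nearly the same values, with 3.34 (SE 0.31) in fat body, 0.21 (SE 0.28) in ovary and 3.39 (SE 0.31; edgeR, adjusted p = 1.39e-06) in brain.

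**Figure D3:**
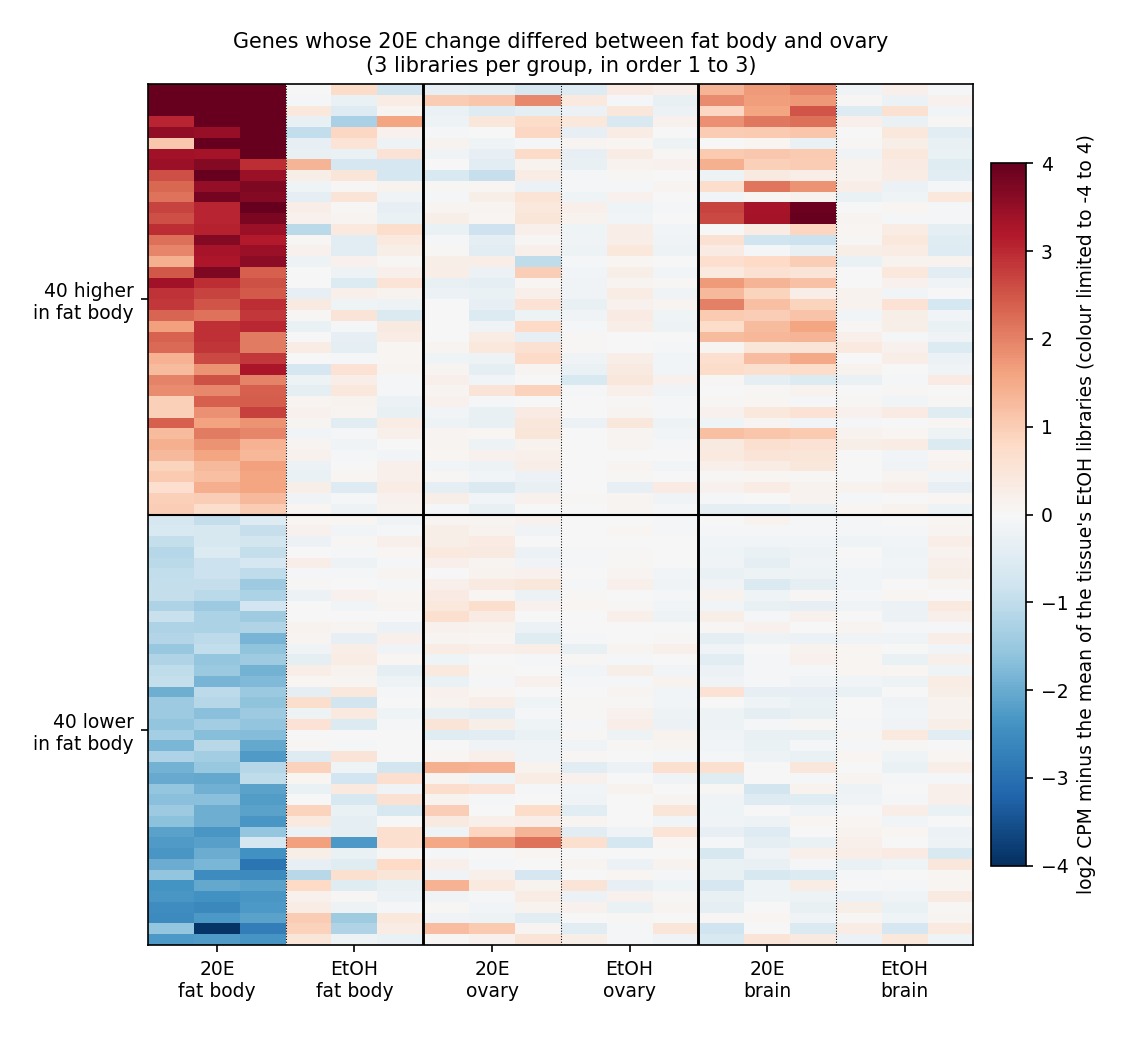
Each row is 1 of the 80 genes and each column a library, coloured by its log2 CPM (edgeR, prior count 2) minus the mean of the EtOH libraries of its tissue, with the colour limited to -4 to 4. The 20E fat body columns are red for the 40 upper genes and blue for the 40 lower genes, the 20E ovary columns are pale for most genes and coloured for the 4 that changed at least 2-fold there, and the 20E brain columns are pale red for many of the upper genes, of which 6 passed in brain.

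Levels in both tissues were also compared in the methoprene libraries, which are part of no 20E contrast. In JHA-Fb, 9 of the 40 genes with the higher response had a higher CPM than in JHA-OV, and so did 30 of the 40 with the lower response, beside 44.3% of all tested genes. Without TMM scaling the numbers were 1, 12 and 14.6%, where the TMM factors were 0.414 to 0.496 in JHA-Fb and 1.44 to 1.57 in JHA-OV. The order of the lists was the same on both scales, whereas the share above ovary was not.

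Genes enriched in either tissue were followed as a description of each library. The EtOH libraries chose these genes, so their EtOH values are extreme in part by that choice. The 354 genes at least 8-fold higher in EtOH-Fb than in EtOH-OV and EtOH-Brain took 48.3 to 54.7% of gene counts in 20E-Fb and 52.1 to 56.0% in EtOH-Fb, against 1.72 to 2.76% in 20E-OV and 1.91 to 2.06% in EtOH-OV. The 226 ovary-enriched genes took 0.0507 to 0.0762% in 20E-Fb and 0.0348 to 0.0388% in EtOH-Fb, against 3.23 to 5.64% in 20E-OV and 4.65 to 4.79% in EtOH-OV. Of the 40 genes with the higher response in fat body, 4 were ovary-enriched and 0 fat-body-enriched. Of the 40 with the lower response, 6 were fat-body-enriched and 0 ovary-enriched. In all, 13367 genes were tested. The EtOH libraries entered both the sets and the 20E contrasts, so these overlaps are a description. The value of 2.76% for fat body genes and that of 3.23% for ovary genes both belonged to 20E-OV replicate 3. Their part in the results was not tested beyond leaving that library out, which gave 120 genes for the difference.

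The number of genes with a called difference varied with the fit. No gene of the 80 changed sign in any of 21 alternative fits. These fits reuse most or all of the libraries that chose the 80, so a change of sign was hardly possible. The number of genes was 83 with DESeq2's size factors in edgeR, 76 with TMM computed within each tissue, and 65 without the filter on low counts. DESeq2's own test called 243 genes, including all 80, and limma voom with library weights called 185, including 71. The fit of the 12 libraries alone called 34 (23 higher, 11 lower), of which 30 were among the 80. Removing both ovary libraries that stood apart gave 183 genes (86 higher, 97 lower), including 78 of the 80.

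Single libraries moved the count as well. It was 139 or 50 without 20E-Fb replicate 1 or 3, and 40, 44 or 47 without EtOH-OV replicate 1, 2 or 3. It was 42, 43 or 120 without 20E-OV replicate 1, 2 or 3. Without 20E-Fb replicate 2 it was 62, and without EtOH-Fb replicate 1, 2 or 3 it was 66, 96 or 61. For fat body alone the count of 583 was 352 without 20E-Fb replicate 3. The ovary count of 4 was 1 without any of the EtOH-OV libraries, 20 without 20E-OV replicate 1, and 9 without 20E-Fb replicate 1 or 2, which act on it only through the shared fit. The 21 genes whose difference passed in all 21 alternative fits comprised 17 of those with the higher and 4 of those with the lower response. HSALG007563.2, HSALG030197.1, HSALG009122.1, HSALG009116.1 and HSALG001741.2 were among them.

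**Figure D4:**
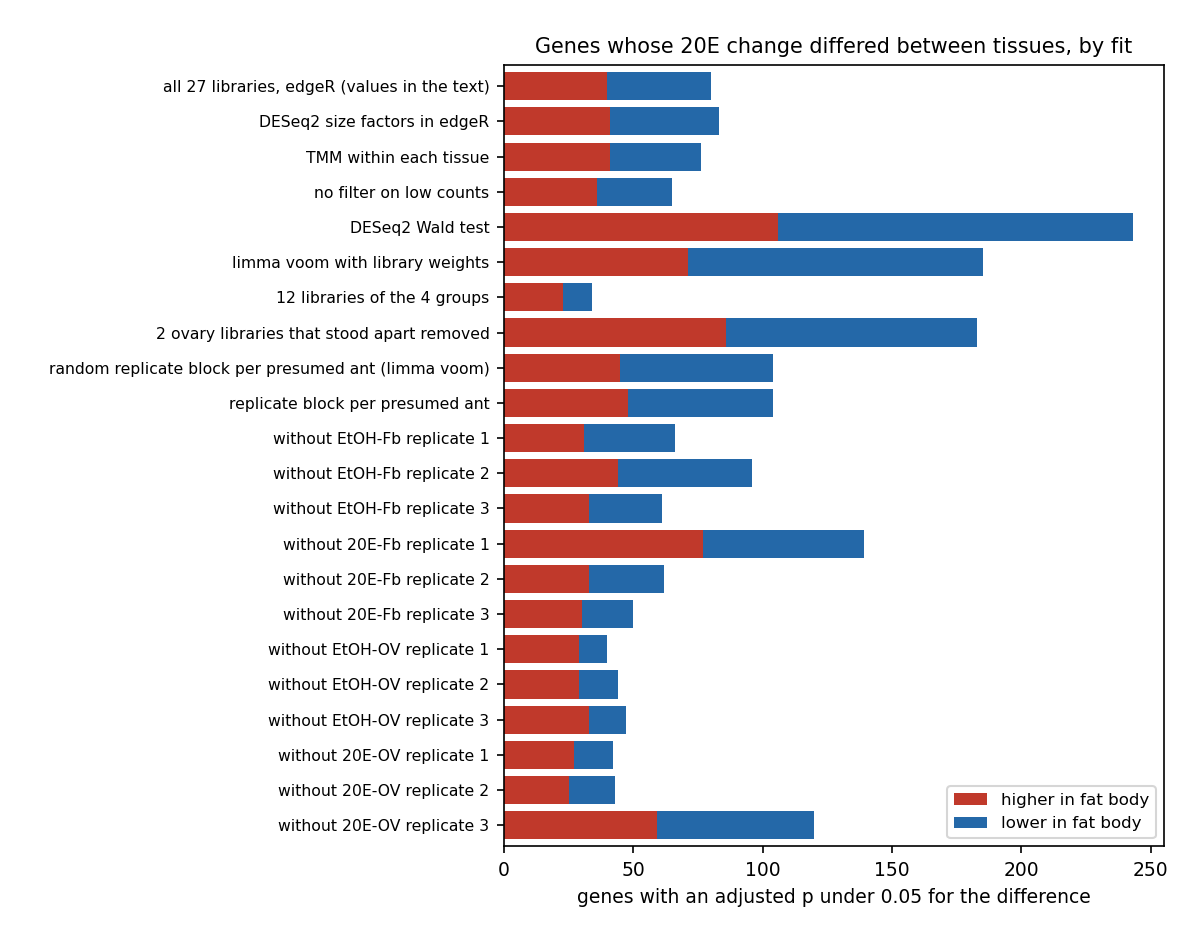
Bars give the number of genes whose 20E change differed between fat body and ovary (edgeR unless another tool is named, adjusted p under 0.05) in the fit of all 27 libraries and in 21 alternative fits, with higher in fat body in red and lower in blue. The total is 80 with all libraries and runs from 34 in the fit of 12 libraries to 243 with DESeq2.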

How the data were processed

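The authors deposited 1 table of read counts per gene for 27 poly(A) RNA libraries. The submitters' processing notes name Trimmomatic, STAR 2.5.3a and HTSeq. The build, annotation and strandedness were not given in the sources used here, so reads of overlapping, antisense or near-identical genes may be mixed. The 5 summary lines of HTSeq were left out. In the 12 libraries HTSeq assigned 26.3 to 38.5% of the total to no feature. Another 6.58 to 18.5% had several alignments, with more of these in fat body than in ovary.

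The test was the quasi-likelihood F-test of edgeR 4.0.16 (R 4.3.3), with filterByExpr, TMM scaling, a robust glmQLFit, and Benjamini-Hochberg adjustment over 13367 genes, in 1 fit of all 27 libraries with 1 mean per group and no replicate block. The difference between tissues was (20E-Fb minus EtOH-Fb) minus (20E-OV minus EtOH-OV). The fit treats the tissues of an ant as independent, and 1 spread per gene is shared by all groups. Each standard error is the log2 fold change divided by the root of its F. The scripts were tested on simulated counts. No replicate pair agreed within sampling noise (lowest chi-square per degree of freedom 11.3).

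Alternatives were DESeq2 1.42.0, its size factors in edgeR, TMM within each tissue, no filter on low counts, limma 3.58.1 voom with library weights, fewer libraries, a replicate block, other limits of size and level, and leaving out each library. Genes were named by rule: the smallest adjusted p of the difference, and within a class the largest change shared by both tissues or the smallest p of the difference, with at least 2 CPM in a group and at most 2 per direction. The comparison, the lists and the rule were chosen with earlier results of these data known. Marker and ecdysone response lists could not be used because no identifier matched a named gene.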

Additional observations from a re-analysis of the deposited data

Results flagged for a closer look

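The 20E response differed between fat body and ovary, by the test of the difference itself, in 80 genes. The named genes among them with a positive difference in log2 fold change (fat body minus ovary) were HSALG030197.1 at 5.46, HSALG001741.2 at 3.46, HSALG013686.2 at 3.13, HSALG006968.1 at 3.09, HSALG015071.2 at 2.94, HSALG007563.2 at 2.45 and HSALG006240.2 at 2.22. Those with a negative difference were HSALG002065.1 at -4.07, HSALG009131.1 at -4.04, HSALG004208.2 at -2.69, HSALG009116.1 at -2.49, HSALG009122.1 at -2.42, HSALG012909.1 at -2.26 and HSALG002447.2 at -1.45. Only HSALG002065.1, HSALG009131.1, HSALG004208.2 and HSALG002447.2 of these 14 lost the call in any alternative fit.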

How the results depend on the processing

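Between 34 and 243 genes had a called difference over the 21 alternative fits, and the range was 40 to 139 with 1 library left out. With DESeq2, 243 genes passed for the difference, 902 in fat body and 54 in ovary. By call, 16 moved in the same direction, 223 in fat body only and 9 in ovary only with the difference. By size, 3 moved in the same and 16 in opposite directions. With library weights in limma voom the same counts were 185, 331, 581, 25, 150, 12, 2 and 8, and 7 were called in opposite directions. The 12 libraries alone gave 34, 288 and 0, with 0 in the same direction, 34 in fat body only, and by size 2 in the same and 0 in opposite directions. Without both ovary libraries that stood apart the counts were 183, 878 and 31, with 8 in the same and 1 in opposite directions, 161 in fat body only and 7 in ovary only with the difference, and 12 in opposite directions by size. A limit of 1.5-fold gave 6 genes in opposite directions by size, and a limit of 3-fold gave 1 in opposite directions and 0 in the same direction. Fits of 1 tissue gave 100 genes in fat body and 0 in ovary over 9 libraries, and 33 and 0 over 6. With 1 library left out, counts ran from 352 to 641 in fat body, 1 to 20 in ovary, 1 to 8 for the same direction by call, 0 to 0 for the opposite direction by call, 39 to 132 for fat body only, 0 to 2 for ovary only with the difference, 1 to 9 for opposite and 1 to 2 for same by size. The difference of HSALG023396.1, which did not pass, ran from -2.50 to 0.28 with 1 library left out and was above 0 only without EtOH-Fb replicate 1. The causes were not tested. Same-numbered fat body and ovary libraries had correlations of their deviations of 0.09, 0.33 and 0.30 in 20E and -0.01, 0.13 and 0.16 in EtOH. For 5 of 6 fat body libraries the best match in ovary had the same number. Whether the numbers link the tissues of an ant is thus not settled. The main fit did not take them as pairs, because the labels do not give the link and the correlations were not all positive. A replicate block per presumed ant gave 104 genes for the difference as a fixed term in edgeR, 67 of them among the 80. As a random term in limma voom it gave 104, 72 of them among the 80. The fixed term gave HSALG000871.2 a difference of -3.08 (edgeR, adjusted p = 0.00474), and the random term -2.99 (limma voom, adjusted p = 0.223). The tool changed together with the term, so the values do not compare the terms alone. A replicate block in the fit of 1 tissue gave 52 in fat body and 0 in ovary. With 3 libraries per group, the 4 ovary calls rest on as few as 1 to 10 counts per EtOH library for 3 of the genes.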
